A study of Homo sapiens with 8 samples.

Results

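The genes described here are 10 genes of the YAP/TAZ-TEAD pathway among the 18216 genes of a polyA RNA-seq table, namely the coactivators YAP1 and WWTR1 (TAZ), the DNA-binding partner TEAD1, the upstream regulators LATS2, AMOTL1 and AMOTL2, and the target genes ANKRD1, CTGF (CCN2), CYR61 (CCN1) and AXL. They were chosen by name with measured levels of the same 8 libraries in view, all 10 had a row, and all 10 passed the filter on low values. Which of those values guided the choice is not recorded, so every contrast among these libraries counts as used, and the levels, changes and calls of the 10 genes are descriptions, given with no p-value.

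IMR90 cells are fibroblasts of human lung, used here at passage 28 and kept in low oxygen (3%). They received DMSO as vehicle or Nutlin-3a (3 µg/mL) for 6, 9 or 12 h, and each of the 4 groups had 2 libraries. All libraries shared 5% carbon dioxide, 10% serum and seeding at 300 k cells per mL. Nutlin-3a occupies the p53 pocket of MDM2, the ubiquitin ligase that otherwise binds and degrades p53. A single pair of DMSO libraries, whose time in culture is not given in the sources used here, serves all 3 times, so the 3 comparisons with DMSO share their controls. Time with the compound and time in culture cannot be told apart, and no cells lacking p53 were among the samples. Nothing in the labels says that replicates were separate cultures, so the spread between libraries may be technical.

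YAP and TAZ are transcriptional coactivators that reach DNA through TEAD factors. Of the Hippo kinases, MST1/2 activate LATS1/2, and LATS1/2 phosphorylate YAP and TAZ and so keep them in the cytoplasm. A stiff substrate, cell spreading and actin tension favour entry of YAP and TAZ into the nucleus. In fibroblasts their targets include secreted matricellular proteins such as CTGF and CYR61, and the pathway feeds back on itself, since LATS2 and AMOTL2 are both regulators and targets.

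The RefSeq promoter windows of ANKRD1 and CTGF are shown because these genes had the largest changes of the 10 at 6 h, and because they held the most copies of the TEAD core motif. The 250 bases before each start are written 5′ to 3′ on the gene's strand, with GGAATG, or its reverse complement CATTCC, in capitals. The ANKRD1 window is chr10:90921088-90921337 and the CTGF window chr6:131951373-131951622, both on the minus strand of GRCh38.p14, whereas the submitters' processing notes name hg19 for the reads.
ANKRD1: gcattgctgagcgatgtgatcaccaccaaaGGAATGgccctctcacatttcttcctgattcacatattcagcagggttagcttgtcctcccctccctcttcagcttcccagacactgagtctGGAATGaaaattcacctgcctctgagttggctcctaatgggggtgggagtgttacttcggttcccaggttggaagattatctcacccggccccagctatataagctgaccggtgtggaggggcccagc
CTGF: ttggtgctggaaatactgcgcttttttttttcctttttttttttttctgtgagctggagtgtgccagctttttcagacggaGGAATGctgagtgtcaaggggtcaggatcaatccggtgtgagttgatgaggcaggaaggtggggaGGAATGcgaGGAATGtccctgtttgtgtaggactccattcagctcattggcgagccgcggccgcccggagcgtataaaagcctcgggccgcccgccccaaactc
In the ANKRD1 window the motif starts 220 and 128 bases upstream of the start, and in the CTGF window 169, 104 and 95 bases upstream. No 2 copies share a base. Single copies stood in the windows of YAP1 (162 bases upstream), of 1 of 2 windows of AMOTL2 (69 bases) and of 1 of 2 windows of AXL (212 bases), the last 2 as CATTCC. Of the 8 genes with a window in the table, 5 held at least 1 copy, in 5 of their 11 windows (45.5%). Over all 35116 promoter windows of the same length, 11.9% held at least 1 copy, 0.94% at least 2 and 0.0826% at least 3. The windows of AMOTL1, LATS2 and WWTR1 had no match, which says only that these letters are not in those 250 bases. CYR61 and TEAD1 were not analysed here for sequence. A match describes letters and does not show binding.

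Among the 10 genes, ANKRD1 stood apart from the others in the size of its response. Its RNA was about 3-fold above DMSO at 6 h, had come down by 9 h, and lay under the DMSO level at 12 h. CTGF followed with a smaller excess at 6 h that was gone by 9 h, and the RNAs of YAP1, WWTR1 and TEAD1 stayed within 20% of DMSO throughout. AMOTL1 drifted down with time.

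Gene reads per library ran between 21.9 and 33.6 M (1e6 reads), and the floor of 3 reads corresponds to a normalized count of 2.46 to 3.75, far under every value of the 10 genes, which rested on 581 to 38072 reads. Levels are the deposited normalized counts, that is gene counts divided by a size factor per library. The p53 response was present under Nutlin-3a, with CDKN1A, the gene of the CDK inhibitor p21, at means of 4812 normalized counts in DMSO and 53379.8, 69469 and 71666 at 6, 9 and 12 h. MDM2 and GDF15, further p53 targets, had log2 changes of 3.03 and 4.52 at 6 h and 3.13 and 3.77 at 12 h. All 10 fibroblast markers had means of at least 50, with summed levels of 1236340.0 to 1541350.0 normalized counts. Of 6 epithelial, 5 endothelial, 5 immune, and 5 smooth muscle and pericyte markers, 3, 4, 3 and 5 had a row, and CDH1, CDH5 and PTPRC averaged 2.15, 2.28 and 3.59 normalized counts, near the floor. Others of these lists were higher, with EPCAM and CLDN4 of the epithelial list averaging 23.1 and 305 normalized counts, and TEK of the endothelial list 1716. CLDN4, a claudin, averaged 256 normalized counts in DMSO and 292, 319 and 353 at 6, 9 and 12 h, and the summed epithelial markers ran at 273 to 289 in DMSO, 307 to 328 at 6 h, 332 to 362 at 9 h and 359 to 393 at 12 h. In DMSO and at 6, 9 and 12 h EPCAM averaged 22.1, 22.4, 26.3 and 21.6 normalized counts and CDH1 2.54, 2.84, 1.87 and 1.34. Summed epithelial levels were thus nearly all CLDN4. The part of any such cells in the results was not tested.

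Changes are log2(normalized count + 1) from limma with an intensity trend, fitted on 14074 genes in all 8 libraries, with a standard error. A gene was called where its p-value, after Benjamini-Hochberg adjustment over those genes, was below 0.05. At 6 h 4 of the 10 genes were called, each of them higher, when 36.7% of all genes tested were called in either direction, 16.1% higher and 20.6% lower. At 9 h the numbers were 1 higher and 3 lower, with 35.3% of all genes called, 16.2% higher and 19.1% lower. At 12 h they were 1 higher and 2 lower, with 39.9% of all genes called, 18.5% higher and 21.4% lower. Libraries did not overlap those of DMSO for 6, 8 and 8 of the 10 genes, a state shared by 62.7, 64.2 and 67.1% of all genes tested. The shares called in either direction and the shares without overlap are near the background. By direction the calls at 6 h were not, with 4 higher and 0 lower against 16.1 and 20.6% of all genes. Nothing is read from any of these counts, as the 10 genes were chosen with measured levels in view. The median change of the 10 genes was 0.07, 0.05 and 0.00, against −0.01, 0.01 and 0.01 over all genes tested.

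**Figure D1:**
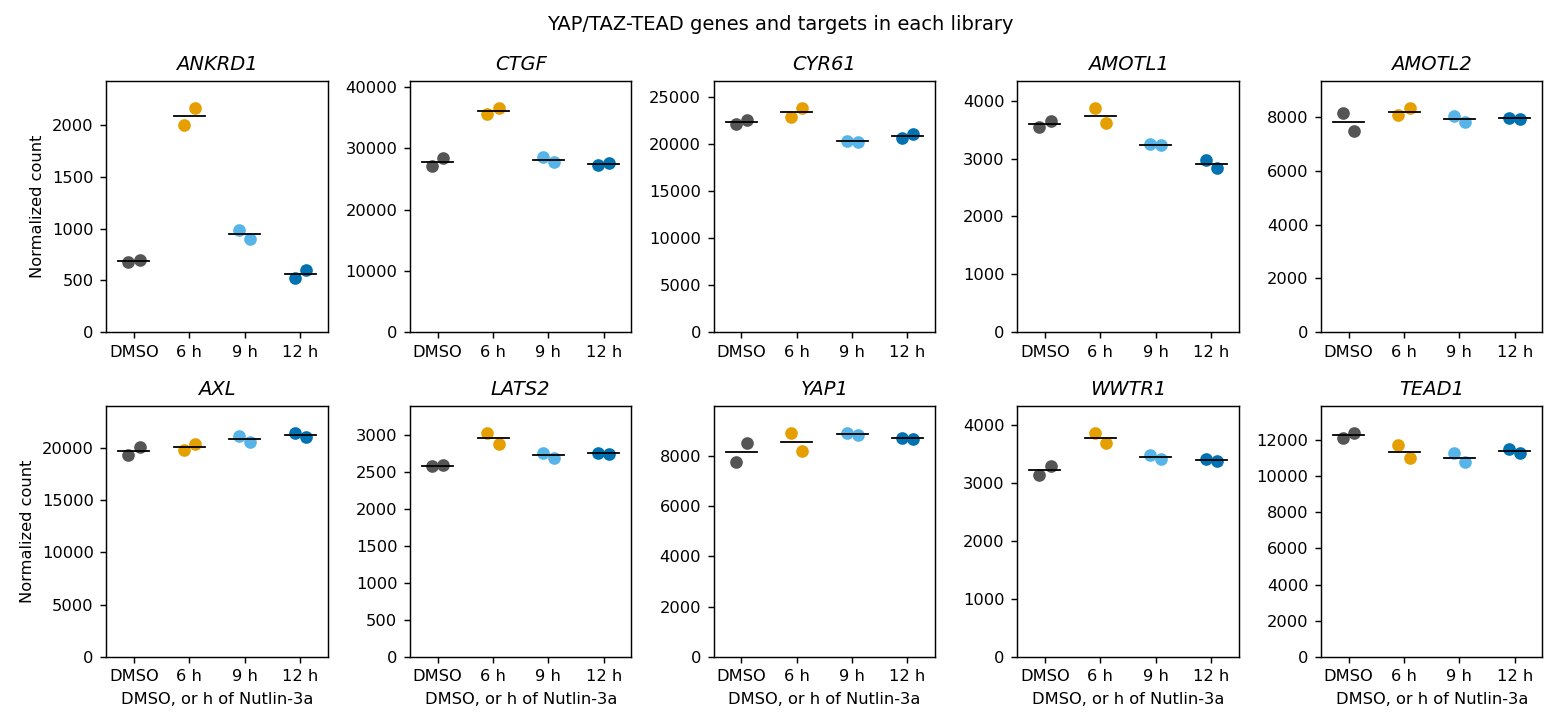
Normalized counts of the 10 genes (y axis, from 0) in DMSO and after 6, 9 and 12 h of Nutlin-3a (x axis). Points are libraries, 2 per group with replicate 1 on the left, and bars are means. The ANKRD1 libraries at 6 h, at 2004 and 2164, stand far above the DMSO libraries, at 677 and 696, whereas most other genes move little.

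YAP1, the coactivator for which the pathway is named, had 7753 and 8527 normalized counts in the DMSO libraries, 8926 and 8189 at 6 h, 8897 and 8822 at 9 h, and 8715 and 8679.5 at 12 h. The 6 h libraries overlapped DMSO and the later ones lay just above it, with changes of 0.07 ± 0.05, 0.12 ± 0.05 and 0.097 ± 0.05, and YAP1 was not called at any time. It was called at 6, 9 and 12 h under 1, 4 and 2 of 21 alternatives, and without DMSO replicate 2 or 1 its 9 h change was 0.19 and 0.055. The DMSO pair lay further apart than the mean of any Nutlin-3a group from that of DMSO. WWTR1, which encodes the paralogous coactivator TAZ, had 3139 and 3291 in DMSO, 3864 and 3677 at 6 h, 3484 and 3400.1 at 9 h, and 3401 and 3378 at 12 h. Every Nutlin-3a library of WWTR1 was above both DMSO libraries, with the highest values at 6 h. Its changes were 0.23 ± 0.05 at 6 h, where it was called, and 0.099 ± 0.05 and 0.08 ± 0.05 at 9 and 12 h, where it was not, although 2 and 1 of 21 alternatives called it.

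TEAD1, a DNA-binding factor that carries YAP and TAZ to their enhancers, was the single gene of the 10 whose highest group was DMSO. It had 12102 and 12407 normalized counts in DMSO, 11705 and 11006 at 6 h, 11257 and 10769 at 9 h, and 11482 and 11257 at 12 h. All Nutlin-3a libraries lay under both DMSO libraries and the 3 Nutlin-3a groups overlapped one another. The changes were −0.11 ± 0.05, −0.15 ± 0.05 and −0.11 ± 0.05, with a call at 9 h, which was lost without the trend and without 9 h replicate 2 (−0.12), while 3 and 2 of 21 alternatives called it at 6 and 12 h.

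LATS2, one of the kinases that phosphorylate YAP and TAZ and itself a target of them, had 2573 and 2592 normalized counts in DMSO, 3031 and 2879 at 6 h, 2757 and 2690.3 at 9 h, and 2761 and 2739 at 12 h. Its Nutlin-3a libraries all lay above the DMSO pair, which differed by under 1%. The change was 0.19 ± 0.05 at 6 h, where it was called, and 0.08 ± 0.05 and 0.09 ± 0.05 later. The 6 h call was lost without 6 h replicate 1 (0.16).

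The angiomotin-like proteins bind YAP and hold it at junctions and in the cytoplasm, and the 2 paralogues differed in their course. AMOTL1 had 3540.2 and 3643 normalized counts in DMSO, 3874 and 3611 at 6 h, 3242 and 3231 at 9 h, and 2971 and 2842 at 12 h. It overlapped DMSO at 6 h and lay under it afterwards, with changes of 0.06 ± 0.05, −0.15 ± 0.05 and −0.31 ± 0.05 and calls at 9 and 12 h. The 9 h call was lost under 5 of 21 alternatives (range −0.17 to −0.12) and the 12 h call under none of 21. AMOTL2, the member that is also a YAP/TAZ target, averaged 7825 ± 473 normalized counts in DMSO and 8201 ± 191, 7924 ± 156 and 7944 ± 19.9 at 6, 9 and 12 h (SD, n = 2). At each time its libraries overlapped DMSO, with changes of 0.07 ± 0.05, 0.02 ± 0.05 and 0.02 ± 0.05. Beside the decrease of AMOTL1, the summed endothelial markers ran at 1967 to 2071 normalized counts in DMSO, 1864 to 1985 at 6 h, 1576 to 1677 at 9 h and 1433 to 1503 at 12 h, nearly all of it TEK, a receptor kinase, with CDH5 near the floor. The other endothelial markers were low and differed in course. In DMSO and at 6, 9 and 12 h VWF averaged 26.7, 34.3, 32.9 and 16.7 normalized counts. KDR averaged 18.1, 15.8, 9.92 and 9.11, and CDH5 0.977, 0.961, 2.86 and 4.31. Whether endothelial cells were present, and any part of them in the decrease, was not tested. Fewer cells of a kind and less RNA per cell cannot be told apart in such bulk samples.

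ANKRD1 encodes an ankyrin repeat protein found in the nucleus and at the sarcomere of stretched muscle, and is among the most widely used readouts of YAP/TAZ activity. It had 677 and 696 normalized counts in the DMSO libraries, 2004 and 2164 at 6 h, 985 and 903 at 9 h, and 526 and 605 at 12 h. No 2 groups overlapped, and the order was 6 h, 9 h, DMSO and 12 h from high to low. The change against DMSO was 1.60 ± 0.07 at 6 h (3.03-fold), 0.46 ± 0.07 at 9 h (1.37-fold) and −0.28 ± 0.07 at 12 h (0.822-fold). At 6 h 0.611% of the genes tested were at least as far above DMSO. The 9 h level was 0.453 times that at 6 h and the 12 h level 0.599 times that at 9 h. Between 12 and 6 h the change was −1.88 ± 0.07, and 11 other genes of 14074 had one as low or lower. Its calls against DMSO at 6 and 9 h held under all 21 alternatives, while the 12 h call was lost without the trend, after quantile normalization (−0.19) and without 12 h replicate 1 (−0.18).

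CTGF, a secreted matricellular protein that promotes fibrosis, had 27071.5 and 28419.5 normalized counts in DMSO, 35643 and 36583.9 at 6 h, 28593 and 27692 at 9 h, and 27248 and 27520.3 at 12 h. The 6 h libraries stood above all others, which overlapped one another except that both 12 h libraries lay under both 9 h libraries. The change was 0.38 ± 0.04 at 6 h (1.30-fold) and 0.02 ± 0.04 and −0.02 ± 0.04 at 9 and 12 h. CTGF was called at 6 h under every one of the 21 alternatives. CYR61, its close relative in the CCN family, had 22057 and 22568 in DMSO, 22867 and 23811 at 6 h, 20314 and 20229.9 at 9 h, and 20625 and 21056 at 12 h. Its 6 h libraries lay above the DMSO pair and its later libraries under it, by small amounts, with changes of 0.06 ± 0.04, −0.14 ± 0.04 and −0.098 ± 0.04. A call was made at 9 h and was lost without the trend and without 9 h replicate 1 or 2 (−0.14 either way). AXL, a receptor tyrosine kinase for the ligand GAS6, averaged 19719 ± 540.3 normalized counts in DMSO and 20110.1 ± 412, 20888 ± 377 and 21303 ± 273 at 6, 9 and 12 h (SD, n = 2). The changes were 0.03 ± 0.04, 0.08 ± 0.04 and 0.11 ± 0.04, no 2 times were called against each other, and the call at 12 h was lost under 12 of 21 alternatives (range 0.05 to 0.14).

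**Figure D2:**
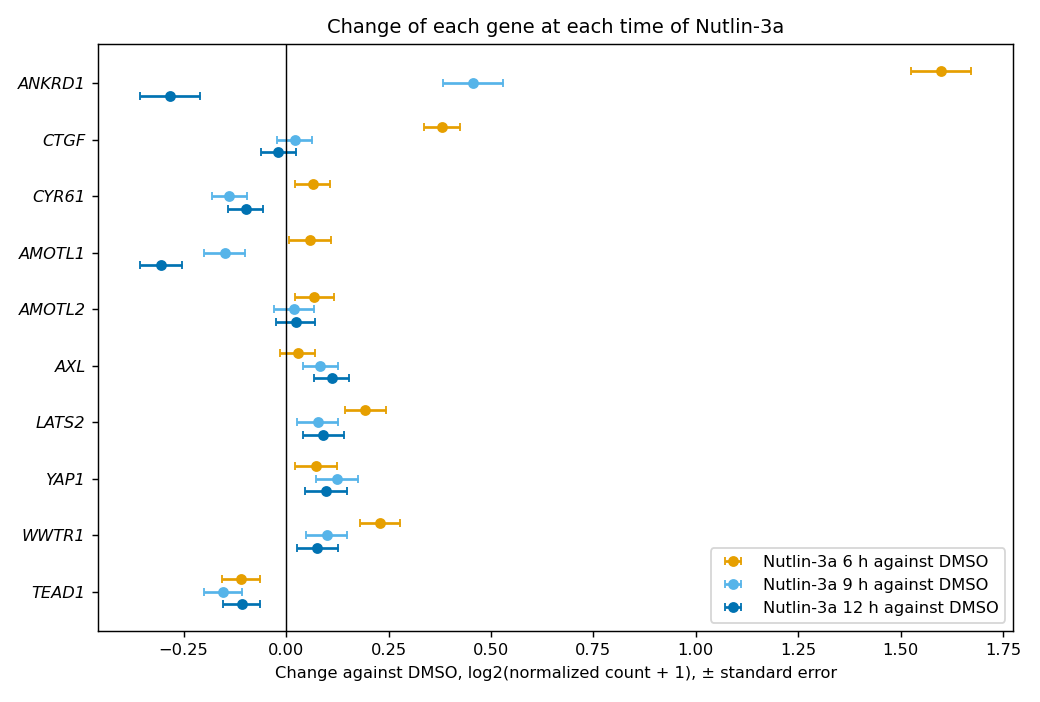
Change of each gene against DMSO (x axis, log2(normalized count + 1), with standard error bars) at 6, 9 and 12 h of Nutlin-3a, from 1 fit over all 8 libraries. ANKRD1 spans 1.60 at 6 h to −0.28 at 12 h, and CTGF at 0.38 has the next largest change.

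Compared with one another, 7 of the 10 genes had their highest group mean at 6 h, which 23.8% of all genes tested did. The exceptions were TEAD1 with DMSO highest, YAP1 with 9 h and AXL with 12 h. Against 6 h, the 12 h libraries gave calls for 5 of the 10 genes, each lower, with 31.5% of all genes called, 14.4% higher and 17.1% lower. These were ANKRD1, CTGF (−0.40 ± 0.04), AMOTL1 (−0.36 ± 0.05), CYR61 (−0.16 ± 0.04) and WWTR1 (−0.15 ± 0.05), and the calls of CYR61 and WWTR1 were lost under 3 and 5 of 20 alternatives. Between 9 and 6 h 4 genes were called, each lower, with 18.4% of all genes called, 8.52% higher and 9.9% lower. These were ANKRD1 (−1.14 ± 0.07), CTGF (−0.36 ± 0.04), AMOTL1 (−0.21 ± 0.05) and CYR61 (−0.20 ± 0.04), and the calls of AMOTL1 and CYR61 were lost under 4 and 1 of 20 alternatives. Between 12 and 9 h ANKRD1 was the only one of the 10 called (−0.74 ± 0.07), with 4.0% of all genes called, 1.08% higher and 2.92% lower. Libraries did not overlap for 8, 8 and 5 of the 10 genes at 12 against 6 h, 9 against 6 h and 12 against 9 h, as for 66.6, 60.8 and 49.8% of all genes tested.

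Levels can be set side by side only per length, and were divided by the merged exon length of GENCODE v29, which may differ from the authors' annotation. In DMSO the order in normalized counts per kb ran from CTGF (11862 ± 408) and CYR61 (9743 ± 158) over AXL (4028 ± 110.4) to AMOTL2 (1637 ± 98.9), YAP1 (1446 ± 97.2), TEAD1 (1322 ± 23.2), WWTR1 (599 ± 19.9), LATS2 (469 ± 2.53), AMOTL1 (399 ± 8.07) and ANKRD1 (347 ± 6.72), as means with SD over 2 libraries. No neighbours in that order overlapped in DMSO. ANKRD1 was thus the lowest of the 10 per kb in DMSO, ranked 7 at 6 h (1053 ± 57.2), 9 at 9 h (477 ± 29.4), and again lowest at 12 h (286 ± 27.99). In GENCODE v29 an opposite-strand gene shares exon bases with CTGF, AMOTL1, AXL, YAP1 and WWTR1. The strand setting of the counting is not stated in the labels, so reads of such partners may be included.

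Among 11451 other genes with a mean of at least 50, the 5 whose profile lay nearest to that of ANKRD1 were ANO1, CEMIP, CAVIN4, PCDH1 and TMEM156. Nearness was the root mean square difference of log2(normalized count + 1), centred on each gene's mean, over the 8 libraries. It was 0.0898 for ANO1, a calcium-activated chloride channel, 0.1004 for CEMIP, a hyaluronan-binding protein, 0.1898 for CAVIN4, a caveolar protein of muscle, 0.209 for PCDH1, a protocadherin, and 0.227 for TMEM156, against a median of 0.737 over all these genes. ANO1 averaged 333 ± 20.8 normalized counts in DMSO and 881 ± 44.95, 417 ± 4.52 and 237 ± 20.7 at 6, 9 and 12 h (SD, n = 2), and CEMIP 1655 ± 29.5 in DMSO and 4369 ± 50.9, 2306 ± 138 and 1299 ± 7.004. Both therefore lay above DMSO at 6 and 9 h and under it at 12 h, as ANKRD1 did, while both CAVIN4 libraries at 12 h lay above DMSO (0.18 ± 0.08, not called). TMEM156 crossed DMSO likewise, at means of 90.4 in DMSO and 186, 109 and 61.5 at 6, 9 and 12 h. Its 9 h change was not called (0.26 ± 0.15), and its 12 h call (−0.55 ± 0.15) was lost under 3 of 21 alternatives. PCDH1 averaged 48.0 in DMSO and 115, 55.7 and 44.1 at those times, and overlapped DMSO at 12 h. The 9 h call of ANO1 was lost without 9 h replicate 1 (0.31). The nearest of the other 9 genes of the set was CTGF, at 0.564. These genes were picked for their likeness, which is a description.

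**Figure D3:**
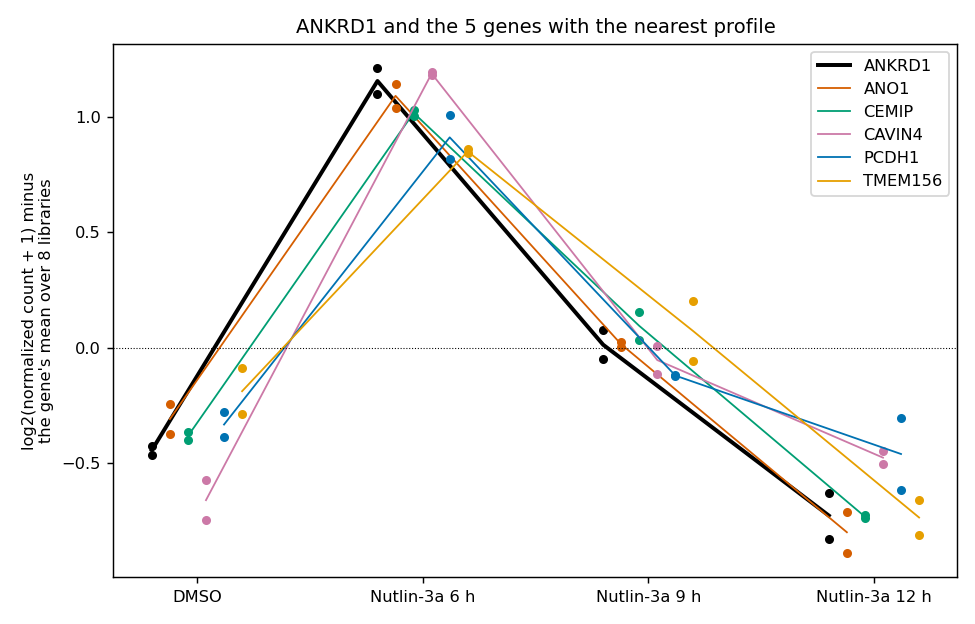
Profiles of ANKRD1 and of the 5 genes nearest to it, as log2(normalized count + 1) minus the gene's mean over the 8 libraries (y axis), in DMSO and after 6, 9 and 12 h of Nutlin-3a (x axis). Points are libraries and lines join group means, shifted sideways for legibility. All 6 genes peak at 6 h, with root mean square differences from ANKRD1 of 0.0898 to 0.227.

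Other genes of the pathway were taken from lists written from general knowledge of it, with earlier results of these data known. For these genes p-values are from limma, adjusted over all 14074 genes. From lists of over 7 genes, those named were picked by their calls and changes at 12 h. The p-values and calls of the lists are therefore descriptions and not independent support. Of 22 Hippo kinases and upstream regulators, 4, 3 and 4 rose and 7, 8 and 8 fell at 6, 9 and 12 h, and the medians were −0.04, −0.09 and −0.10, against −0.01, 0.01 and 0.01 over all genes tested. Over all genes tested 16.1, 16.2 and 18.5% rose and 20.6, 19.1 and 21.4% fell at those times. Without DMSO replicate 2, 8 of the 22 rose at 6 h, and without 6 h replicate 1, 2 did. Without 9 h replicate 1 or 2, 4 fell at 9 h, and without 12 h replicate 2, 5 fell at 12 h. FRMD6, a FERM-domain protein upstream of the kinases, rose by 0.75 ± 0.06, 0.59 ± 0.06 and 0.48 ± 0.06 (adjusted p at 12 h = 5.47e-07), and MOB1B, an activator of LATS kinases, by 0.30 ± 0.07, 0.30 ± 0.07 and 0.34 ± 0.07. The calls of MOB1B were lost without the trend at 6 and 9 h and, at 6 h, without 6 h replicate 1 (0.22). STRN3, a scaffold of a phosphatase complex that acts on the kinases MST1/2, rose at 12 h only (0.15 ± 0.06), a call lost under 12 of 21 alternatives (range 0.10 to 0.20), while its relative STRN4 fell at each time (−0.28, −0.26 and −0.31, each ± 0.06). WWC1 (KIBRA), a scaffold of the LATS kinases, fell by 0.66 ± 0.10, 0.41 ± 0.10 and 0.27 ± 0.10, and AMOT, the founding angiomotin, by 0.41 ± 0.08, 0.32 ± 0.08 and 0.26 ± 0.08. The 12 h calls of WWC1 and AMOT were lost after quantile normalization (−0.18 and −0.19), with DESeq2 and in the authors' deposited table, and without 12 h replicate 2 (−0.32 and −0.22), that of WWC1 also without the trend and without 12 h replicate 1 (−0.22), and the 9 h call of AMOT without 9 h replicate 1 (−0.26).

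The other TEAD genes went in different directions. TEAD4 had a change of 0.10 ± 0.09 at 6 h that was not called, and fell by 0.57 ± 0.09 at 9 h and 0.81 ± 0.09 at 12 h (adjusted p = 6.39e-07). TEAD2 fell by 0.30, 0.40 and 0.45 (each ± 0.08) and TEAD3 rose by 0.29 ± 0.07 at 9 h and at 12 h. Without the trend the calls of TEAD3 and those of TEAD2 at 6 and 9 h were lost, and without DMSO replicate 1 or 6 h replicate 1 that of TEAD2 at 6 h (range −0.44 to −0.15). Without DMSO replicate 2 the changes of TEAD3 and TEAD4 at 6 h, which were not called, turned negative. VGLL3 and VGLL4, cofactors that bind TEAD proteins in place of YAP and TAZ, rose at 6 h (0.33 ± 0.06 and 0.35 ± 0.07) and were near the DMSO level at 12 h (0.02 ± 0.06 and −0.01 ± 0.07). Of 7 genes in this list 5 were tested. At 6, 9 and 12 h, 2, 1 and 1 of these rose and 1, 2 and 2 fell. Over all genes tested 16.1, 16.2 and 18.5% rose and 20.6, 19.1 and 21.4% fell. The medians of the list were 0.11, 0.04 and −0.01, against −0.01, 0.01 and 0.01 over all genes tested.

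Of 21 further genes reported as YAP/TAZ targets, 11, 9 and 9 rose and 5, 4 and 4 fell at 6, 9 and 12 h. Over all genes tested 16.1, 16.2 and 18.5% rose and 20.6, 19.1 and 21.4% fell at those times. The medians of the list were 0.17, 0.13 and 0.16, against −0.01, 0.01 and 0.01 over all genes tested. GADD45A, a stress-induced growth arrest gene that is also known as a p53 target, rose by 1.33, 1.06 and 1.08 (each ± 0.05, adjusted p at 12 h = 1.18e-12), NUAK2, a kinase related to AMPK, by 0.39, 0.49 and 0.48 (each ± 0.07), and AJUBA, a LIM protein that restrains LATS kinases, by 0.61, 0.38 and 0.41 (each ± 0.05). FOXF2, a transcription factor of lung mesenchyme, fell by 0.38, 0.41 and 0.48 (each ± 0.08), ARHGAP29, a RhoA inactivator, by 0.39, 0.37 and 0.23 (each ± 0.07), and TGFB2, a growth factor, by 0.23 at 6 h and 0.26 at 12 h (each ± 0.08). The 6 and 12 h calls of TGFB2 were lost under 7 and 5 of 21 alternatives (ranges −0.32 to −0.13 and −0.35 to −0.16) and that of ARHGAP29 under 4 of 21 (range −0.31 to −0.15).

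**Figure D4:**
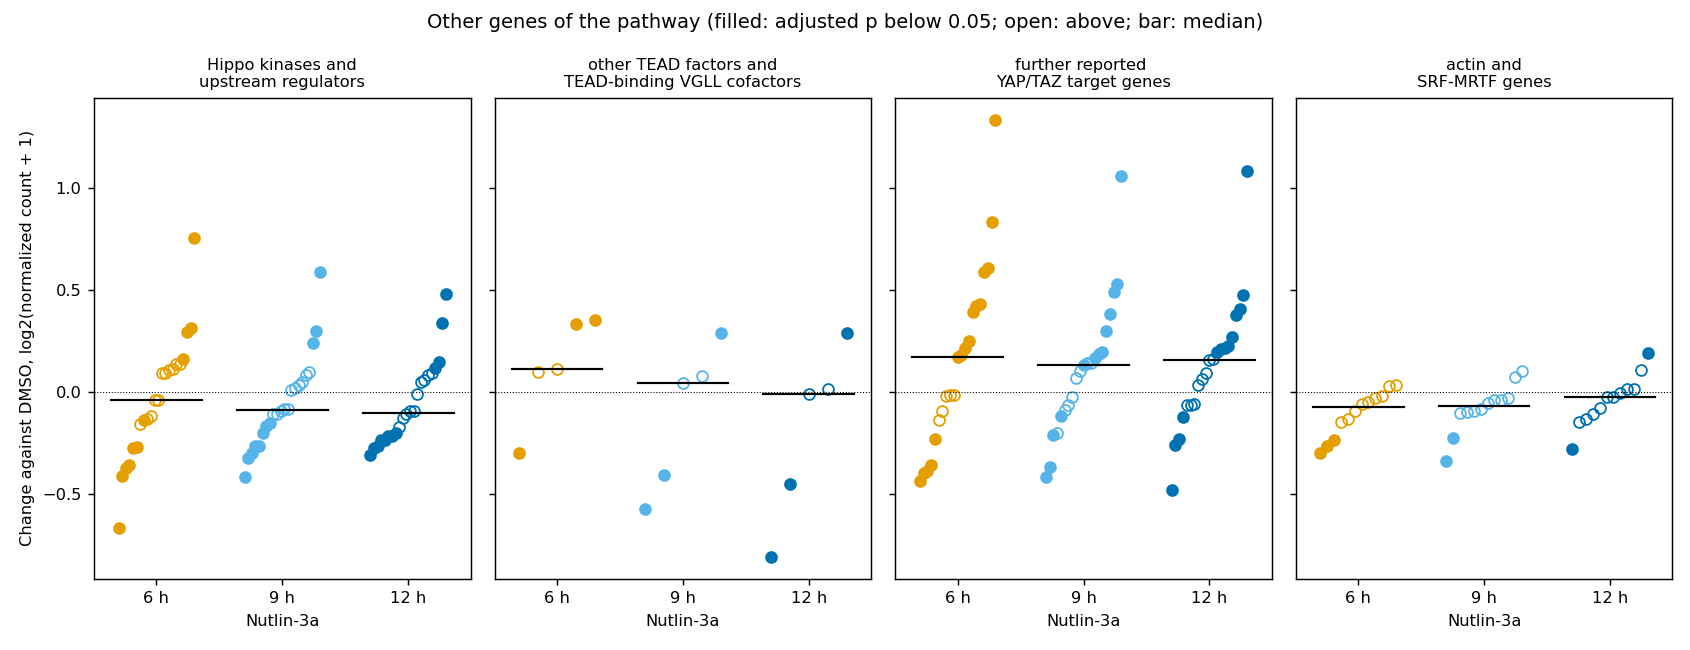
Change against DMSO (y axis, log2(normalized count + 1)) of the tested genes of 4 lists at 6, 9 and 12 h of Nutlin-3a (x axis). Filled points have an adjusted p below 0.05, open points do not, and bars are medians. The medians of the further targets lie at 0.17, 0.13 and 0.16, and those of the kinases and regulators at −0.04, −0.09 and −0.10.

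Genes of actin and of SRF-MRTF, the other main route from actin tension to transcription, made up a further list. Of 12 such genes 3, 2 and 1 fell at 6, 9 and 12 h and 1 rose at 12 h, when 36.7, 35.3 and 39.9% of all genes tested were called in either direction. Leaving out DMSO replicate 2 raised the genes that fell to 7, 7 and 5. The medians were −0.07, −0.07 and −0.02, against −0.01, 0.01 and 0.01 over all genes tested. TAGLN (transgelin) rose by 0.19 ± 0.04 at 12 h, a call lost after quantile normalization (0.08), and CNN1 (calponin 1) fell by 0.30, 0.34 and 0.28 (each ± 0.06) at 6, 9 and 12 h, calls lost at 6 and 12 h without the trend. CNN1 is also among 5 smooth muscle and pericyte markers. Their summed level was 11630.4 to 12736 normalized counts in DMSO and 10504 to 11439.7 at 6 h. At 9 h it was 11576 to 11579.8 and at 12 h 12214 to 12236. Most of the sum was ACTG2, with means of 8849 in DMSO and 8235, 8918 and 9456 at 6, 9 and 12 h. CNN1 averaged 3179 in DMSO and 2578, 2509 and 2613 at those times. RGS5 did not fall with CNN1, at means of 90.0 in DMSO and 100.5, 99.2 and 97.3 at 6, 9 and 12 h. MYH11 and DES averaged 37.1 and 21.5 over all libraries. The part of such cells in these changes was not tested. Of the 2 muscle ankyrin repeat relatives of ANKRD1, ANKRD2 fell at 9 h (−0.92 ± 0.34, adjusted p = 0.0405), a call lost under 7 of 20 alternatives (range −1.01 to −0.68), and ANKRD23 was called at no time, both at low levels, with DMSO means of 26.2 ± 2.47 and 33.3 ± 16.7 normalized counts (SD, n = 2). Of the relatives of CTGF and CYR61, NOV (CCN3) rose by 0.45 ± 0.12 at 6 h and WISP1 (CCN4) by 0.34 ± 0.08 and 0.30 ± 0.08 at 6 and 9 h, and neither was called at 12 h (0.01 ± 0.12 and 0.14 ± 0.08). The call of NOV at 6 h was lost without DMSO replicate 1 (0.35) or 6 h replicate 2 (0.39) and in the authors' deposited table, and those of WISP1 without the trend and without 6 h replicate 1 (0.21) or 9 h replicate 2 (0.26). Around AXL, its relative TYRO3 fell by 0.28, 0.59 and 0.72 (each ± 0.07, adjusted p at 12 h = 9.32e-08), its ligand GAS6 rose by 0.12 and 0.19 (each ± 0.04) at 9 and 12 h, and the related ligand PROS1 (protein S) rose by 0.32, 0.30 and 0.23 (each ± 0.08). The 6 h call of TYRO3 was lost without 6 h replicate 1 (−0.26) and the 9 h call of PROS1 without 9 h replicate 2 (0.22). The 9 h call of GAS6 was lost under 12 of 21 alternatives (range 0.08 to 0.17) and the 12 h call of PROS1 under 7 of 21 (range 0.14 to 0.31).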

How the data were processed

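PolyA RNA of 8 libraries, 4 groups of 2, was measured by RNA-seq with a strand-marking kit, per the labels' protocols. The submitters' processing notes name STAR, DESeq2 and hg19; no counting tool is named there. The authors deposited gene counts divided by a size factor per library, a normalized signal. They also deposited log2 fold changes and adjusted p-values of DMSO over each Nutlin-3a time, per the file headers; these signs were turned here. Values were whole multiples of 1 read (100% within 1e-06), so reads were recovered; for 9 h replicate 1 the step is so near 1 that an automatic test gives no verdict. The 3 non-gene rows, 28.2 to 29.1% of each total, were left out.

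The main test was limma 3.58.1 (R 4.3.3) on log2(normalized count + 1), with a trend, all 8 libraries, and genes of at least 10 in at least 2 libraries; it has 4 residual and 15.5 prior degrees of freedom and was tested on simulated data. An exact permutation test of 2 against 2 cannot go below p = 0.333. Alternatives included edgeR 4.0.16 and DESeq2 1.42.0 on recovered reads. Members and lists were chosen with earlier results of these data known. Named were all members, per list up to 3 called genes with the largest increases and decreases at 12 h, for lists of at most 7 genes all with a mean of at least 50, and the 5 genes nearest to ANKRD1; both muscle ankyrin repeat relatives, under that mean, are named in addition, after their values were seen. Counting error only is covered by the floor of 3 reads.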

Additional observations from a re-analysis of the deposited data

Results flagged for a closer look

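A pair of genes of the set lay on opposite sides of DMSO at different times, with every library of a time on 1 side of both DMSO libraries. At 6, 9 and 12 h, 62.7, 64.2 and 67.1% of all genes tested did not overlap DMSO. The share of genes that changed sides was not counted. ANKRD1 lay above DMSO at 6 and 9 h (1.60 and 0.46) and under it at 12 h (−0.28). Its 12 h call was lost under 3 of 21 alternatives. CYR61 lay above DMSO at 6 h (0.065) and under it at 9 and 12 h (−0.14 and −0.098). It was called at 9 h only, a call lost under 3 of 21 alternatives. The contrast of 12 against 6 h, which compares the changes from DMSO, was called for both (−1.88 for ANKRD1 and −0.16 for CYR61, the call of CYR61 lost under 3 of 20 alternatives). These calls are descriptions, as the genes were chosen with such values in view. For some other genes of the pathway named in the report, limma called the difference between 12 and 6 h of Nutlin-3a. The difference was negative for FRMD6 (−0.27), TEAD4 (−0.91), VGLL3 (−0.32), VGLL4 (−0.36), GADD45A (−0.25), AJUBA (−0.20), NOV (−0.43) and TYRO3 (−0.44). It was positive for WWC1 (0.39), TAGLN (0.21) and GAS6 (0.20). Not called were MOB1B, STRN3, STRN4, AMOT, TEAD2, TEAD3, NUAK2, FOXF2, TGFB2, ARHGAP29, CNN1, WISP1, PROS1, ANKRD2 and ANKRD23. Over all genes tested 31.5% were called in this contrast, 14.4% higher and 17.1% lower. The call of WWC1 was lost without 6 h replicate 1 (0.25) or 12 h replicate 2 (0.34), that of AJUBA without the trend, 6 h replicate 1 or 12 h replicate 2 (range −0.25 to −0.16), that of NOV with DESeq2, without 6 h replicate 2 or 12 h replicate 1 (range −0.52 to −0.35), and those of FRMD6 and VGLL3 without the trend.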

How the results depend on the processing

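No called change of the 10 genes, the named genes of the lists, the 5 genes nearest to ANKRD1 or the p53 check genes reversed its sign under the alternatives run. Numbers of calls did move. Without a trend, genes called at 9 against 6 h were 597 higher and 740 lower, and at 12 against 9 h 30 and 144, while among the 10 genes 0 were lower at 9 h, 0 higher and 1 lower at 12 h, and 3 lower at 12 against 6 h. Hippo regulators then had 2 higher at 6 h and 2 at 12 h, further targets 1 lower at 12 h, and actin genes 1 lower at 6 h and 0 at 12 h. With only the 2 groups compared, 12 against 9 h gave 529 higher and 858 lower genes, 0 of the 10 genes were higher at 12 h and 2 Hippo regulators. Group weights gave 428 and 812 at 12 against 9 h and 0 of the 10 genes higher at 12 h, as did no filter on low values. After quantile normalization 1 of the 10 genes was lower at 6 h, 3 higher at 9 h, and 3 higher and 4 lower at 12 h; 5 Hippo regulators were lower at 9 and at 12 h, 2 further targets lower at 12 h, and 0 actin genes higher and 3 lower at 12 h. TMM scaling and edgeR each gave 2 of the 10 genes higher at 9 h and 1 and 2 actin genes higher at 9 and 12 h. DESeq2 called 786 genes higher at 9 against 6 h and 5 Hippo regulators lower at 12 h. The authors' deposited table, an alternative chosen after seeing the data, gave 5 Hippo regulators lower at 12 h and 1 actin gene lower at 9 h.

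Same-numbered replicates share only a number. The correlation of their deviations from the group means, over 11461 genes, ran from −0.15 to 0.09, and the replicate block gave 1 actin gene higher at 9 h and moved no other count of calls named here by over 1.5 times.

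Leaving out each library in turn gave these ranges. Genes called higher were 1501 to 2680 at 6 h, 1419 to 2639 at 9 h and 1697 to 2948 at 12 h against DMSO. At 9 against 6 h 579 to 1888 were higher and 761 to 2041 lower, at 12 against 9 h 42 to 439 and 215 to 819, and at 12 against 6 h 1248 to 2674 were higher. Of the 10 genes 0 to 1 were lower at 6 h, 1 to 4 higher and 0 to 3 lower at 9 h, 0 to 2 higher and 1 to 4 lower at 12 h, and 0 to 1 higher and 3 to 6 lower at 12 against 6 h. Hippo regulators were 2 to 8 higher at 6 h, 4 to 9 lower at 9 h, and 2 to 3 higher and 5 to 11 lower at 12 h. Further targets were 1 to 3 lower at 12 h. Actin genes were 3 to 7 lower at 6 h, 0 to 1 higher and 1 to 7 lower at 9 h, and 1 to 3 higher and 1 to 5 lower at 12 h. Without DMSO replicate 2 the lower actin genes were 7, 7 and 5, the 10 genes 4 higher at 9 h and the Hippo regulators 8 higher at 6 h; without 9 h replicate 2 none of the 10 genes was lower at 9 h. Where 1 library remained in a group, it was assumed to vary like the others.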
